A study of Homo sapiens with 14 samples.

Results

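Divergent gene pairs are neighbouring genes that lie head to head, a minus-strand gene and a plus-strand gene whose starts face each other across a short shared promoter region. They were found here by position alone: listed nuclear genes on the same chromosome, the minus-strand gene ending before the plus-strand gene begins, with at most 1000 bp between the spans. This gave 586 pairs of 1167 genes, 9.40% of the 12411 nuclear genes listed, and 5 genes belonged to 2 pairs. The comparison class was 8531 pairs of adjacent genes in which neither gene belongs to any divergent pair. The occupancy of genes by RNA polymerase II (RNAPII) was followed by ChIP-seq, the sequencing of DNA recovered with an antibody from fixed chromatin. The cells were BJ hTERT, human foreskin fibroblasts immortalised with telomerase, and the study concerns S phase transcription when ATR, a kinase of the replication checkpoint, is inhibited. An antibody to the N-terminal part of the largest RNAPII subunit gave total RNAPII, and an antibody to the serine 2 phosphorylated form gave Ser2. With each antibody, 1 library was made at 14 h, and 1 each from cells given the ATR inhibitor (ATRi) and cells given DMSO at 16, 19 and 22 h. This makes 14 libraries in 14 groups. What the hours count from, the name and dose of the inhibitor and any synchronisation of the cells are not given in the sources used here.

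At a divergent promoter, polymerase starts on opposite strands and moves outward both ways, so that each gene has its own core promoter while both share the open chromatin between them. Such promoters are common in mammalian genomes, are mostly rich in CpG and poor in TATA boxes, and are known for holding many genes of DNA repair, the cell cycle and mitochondria. Total RNAPII follows polymerase in any state, and phosphorylation of serine 2 of the C-terminal repeats marks polymerase in productive elongation.

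The libraries held 17181179 to 62368915 reads, and the median gene 303 to 1623 reads. Values are RPM, the reads on a gene from start to end for each 1000000 reads of the library, not divided by length, and where levels of different genes are set side by side they are given per kilobase (RPM per kb). ChIP reads carry no strand, so a read where genes overlap cannot be given to one of them, and 23.5% of members overlapped another listed gene, against 37.3% of the other genes. The share of reads inside listed genes was 70.8% and 72.0% in the total RNAPII libraries and 65.6% and 63.5% in the Ser2 libraries of 19 h (ATRi and DMSO in that order), and 35.8% to 57.4% in the other libraries. Most genes had their highest RPM at 19 h, and changes are given relative to the median gene where this is said. In bulk cells, less RNAPII per cell and fewer cells with RNAPII on a gene cannot be told apart. All 9 fibroblast markers looked for were listed, for example VIM (vimentin) at 19.1 RPM per kb and COL1A1, a collagen I chain, at 11.3 RPM per kb. Of 11 markers of other skin and blood cell types only KRT14, a keratin of basal keratinocytes, was listed, at 0.136 RPM per kb.

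The gap between partners had a median of 119 bp and a range of 0 to 975 bp. It was at most 100 bp in 250 pairs (42.7%), over 100 and up to 300 bp in 231 (39.4%) and over 300 bp in 105 (17.9%). Both partners were named protein-coding genes in 383 pairs (65.4%), and 81 pairs (13.8%) joined a protein-coding gene with a long non-coding RNA gene. Long non-coding RNA genes made up 7.71% of members and 3.76% of all genes listed. All 1167 members passed the filter of a mean of 1 RPM over the total RNAPII libraries, and 1166 over the Ser2 libraries. Their median span was 27842 bp and their median level 23.8 RPM, against 32848.5 bp and 26.2 RPM for genes of adjacent unpaired pairs. Of 33 head-to-head pairs known from textbooks and reviews that were looked for, the rule found 5: AURKA with CSTF1 (33 bp apart), PPAT with PAICS (125 bp), CDC45 with UFD1 (243 bp), TK1 with AFMID (83 bp) and MCM4 with PRKDC (1 bp). The shortest gap, 0 bp, lay between HMGN5 and SH3BGRL on chromosome X.

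The promoter windows of 5 members are printed because the results below turn on these pairs: CDCA8 and PTTG1, mitotic genes that parted from their partners between 16 and 22 h, PCNA, a replication gene whose partner lay near the median gene in total RNAPII, and COPE and TK1, which lay on the same side of the median gene as their partners. Each runs 5′ to 3′ on the strand of the named gene over 250 bases before its start and 50 bases after it, from RefSeq promoters of GRCh38.p14. Capitals mark matches on either strand to the CCAAT box, to the TATA box as TATAAA, to the GC box as GGGCGG, to an ETS type site as CCGGAAG, to an E2F type site as TTCCCGC and to the cell cycle homology element (CHR) as TTTGAA. Matches can overlap, as a CCAAT box read on the other strand and a GC box do in CDCA8.
CDCA8, plus strand, chr1:37692266-37692565: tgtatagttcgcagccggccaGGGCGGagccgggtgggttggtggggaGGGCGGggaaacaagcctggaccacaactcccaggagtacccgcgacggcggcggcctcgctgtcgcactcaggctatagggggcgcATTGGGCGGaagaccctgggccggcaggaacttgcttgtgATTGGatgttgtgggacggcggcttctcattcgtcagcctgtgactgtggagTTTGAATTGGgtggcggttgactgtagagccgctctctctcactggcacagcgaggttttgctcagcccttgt
PTTG1, plus strand, chr5:160421605-160421904: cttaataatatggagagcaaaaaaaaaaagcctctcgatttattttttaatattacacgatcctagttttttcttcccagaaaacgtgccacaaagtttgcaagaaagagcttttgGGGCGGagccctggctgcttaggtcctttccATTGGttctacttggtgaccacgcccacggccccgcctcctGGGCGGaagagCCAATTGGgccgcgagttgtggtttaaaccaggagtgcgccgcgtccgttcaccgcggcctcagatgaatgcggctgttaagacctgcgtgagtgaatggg
PCNA, minus strand, chr20:5126573-5126872: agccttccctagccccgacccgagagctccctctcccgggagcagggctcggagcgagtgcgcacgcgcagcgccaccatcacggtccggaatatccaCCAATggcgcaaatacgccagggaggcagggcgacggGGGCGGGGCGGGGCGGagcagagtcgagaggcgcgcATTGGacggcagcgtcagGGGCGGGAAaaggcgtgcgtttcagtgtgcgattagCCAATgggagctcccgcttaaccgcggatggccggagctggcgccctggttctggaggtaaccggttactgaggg
TK1, minus strand, chr17:78187155-78187454: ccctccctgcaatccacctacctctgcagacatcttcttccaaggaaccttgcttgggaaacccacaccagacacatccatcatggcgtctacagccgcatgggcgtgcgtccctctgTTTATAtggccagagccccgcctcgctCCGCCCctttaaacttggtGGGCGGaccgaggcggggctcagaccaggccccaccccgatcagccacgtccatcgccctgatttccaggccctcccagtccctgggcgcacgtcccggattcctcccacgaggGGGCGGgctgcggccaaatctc
COPE, minus strand, chr19:18919338-18919637: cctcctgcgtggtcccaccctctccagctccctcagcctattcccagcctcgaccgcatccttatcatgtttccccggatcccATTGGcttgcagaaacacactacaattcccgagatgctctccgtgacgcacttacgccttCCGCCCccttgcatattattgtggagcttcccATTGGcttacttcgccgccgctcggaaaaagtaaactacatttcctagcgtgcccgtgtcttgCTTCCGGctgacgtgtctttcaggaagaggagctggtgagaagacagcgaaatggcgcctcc
The start of the partner falls inside 3 of these windows: SLU7 starts at base 107 of the PTTG1 window, CDS2 at base 87 of the PCNA window and AFMID at base 138 of the TK1 window. CDCA8 held 3 CCAAT matches, 3 GC boxes and 1 CHR match, and PTTG1 held 3 CCAAT matches and 2 GC boxes. PCNA held 3 CCAAT matches, 4 GC boxes and 1 E2F type match. TK1 held 1 TATA match and 3 GC boxes, and COPE held 2 CCAAT matches, 1 GC box and 1 ETS type match. A match describes these letters only.

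RefSeq windows were matched for 884 members, and 781 of them started within 500 bp of the listed start and were compared with windows of 6219 other listed genes. Median GC content was 65.7% in members and 65.7% in other genes. The median ratio of observed to expected CpG was 0.898 in members and 0.851 in other genes, and it reached 0.6 in 96.7% of members and 86.1% of other genes. CCAAT was present in 44.4% of member windows against 36.8% of others, CCGGAAG in 28.9% against 20.4%, GGGCGG in 77.1% against 72.0%, TTCCCGC in 13.2% against 10.6% and GCGCATG (NRF1 type) in 11.8% against 8.07%. TATAAA was present in 2.82% of member windows against 4.82% of others. The shares were 8.45% against 8.02% for AAGATGG (YY1 type), 8.96% against 9.52% for TTTGAA and 6.79% against 6.16% for TGACGTC (CRE). Partner windows are not independent, since in 261 of the 290 pairs with both windows these overlapped.

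Levels were more alike within divergent pairs than between adjacent unpaired genes on each measure below, while against unpaired genes within 1000 bp the measures went both ways. Over pairs, the correlation of log2 RPM per kb, averaged over libraries, was 0.381 in the 586 divergent pairs, 0.269 in 8086 adjacent unpaired pairs with both genes at 1 RPM or more, and 0.528 in the 450 of these that lie within 1000 bp of each other. The median fold between the denser and the sparser gene was 1.67 in divergent pairs, 1.79 in adjacent unpaired pairs and 1.75 in those within 1000 bp. The ratio of Ser2 to total RNAPII correlated at 0.350 between divergent partners, 0.207 between adjacent unpaired genes and 0.260 between those within 1000 bp. Over the 7 total RNAPII libraries, the median correlation of the profiles of both genes was 0.525 in divergent pairs, 0.321 in adjacent unpaired pairs and 0.696 in those within 1000 bp. These correlations describe the pairs and carry no test, because all genes of a library share its depth and scaling.

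The main question was whether partners change together under ATRi more than adjacent unpaired genes do, and they did so in all 6 contrasts. In each contrast of an ATRi with a DMSO library, the log2 ratios of the partners were correlated across pairs, each pair entered in both orders. The correlations in divergent pairs were 0.243, 0.361 and 0.292 at 16, 19 and 22 h in total RNAPII, against 0.112, 0.190 and 0.156 in adjacent unpaired genes. In Ser2 they were 0.321, 0.154 and 0.146 in divergent pairs, against 0.184, 0.0943 and 0.0983 in adjacent unpaired genes. The mean was 0.253 in divergent pairs and 0.139 in adjacent unpaired genes, a difference of 0.114 ± 0.0486 (SD, n = 6 contrasts) with an exact two-sided sign-flip p of 0.03125, the smallest that 6 contrasts can give. Over the 3 measures of this comparison the adjusted p was 0.03125 in that exact test, and over all 18 comparisons of measures and classes 0.0625. Partners lay on the same side of the median gene in 59.2% of divergent pairs and 55.5% of adjacent unpaired pairs, again higher in 6 of 6 contrasts. The median absolute difference between the log2 ratios of both genes was 0.14 in divergent pairs and 0.16 in adjacent unpaired pairs, lower in 6 of 6. The 2 antibodies at an hour may share their chromatin. With both averaged within an hour, 3 contrasts remain and the exact p was 0.25, the smallest they allow.

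**Figure D1:**
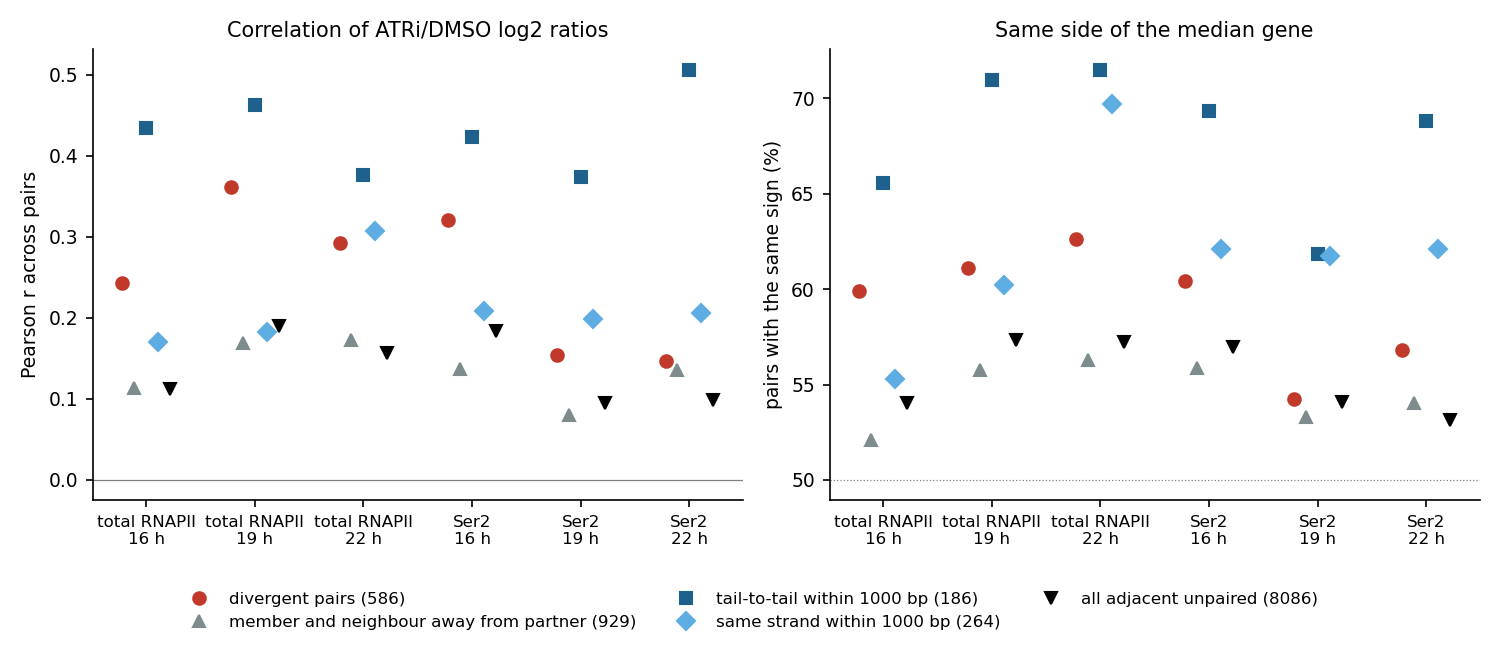
Left, Pearson correlation across pairs of the ATRi to DMSO log2 ratios of both genes, and right, the percentage of pairs with both genes on the same side of the median gene, for 6 contrasts and 5 classes of pairs (number of pairs in the legend). In both panels the divergent pairs (red) lie above all adjacent unpaired genes (black) in each contrast and below tail-to-tail neighbours within 1000 bp (dark blue squares).

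The excess was smaller once the trend of each contrast with read density was removed: the difference was then 0.0666, with an exact adjusted p of 0.0625. Each member was also set against its neighbour on the side away from its partner, where their spans did not overlap. These neighbours lay at a median gap of 25182 bp, against 119 bp for divergent partners, so distance changed along with the neighbour. The mean correlation was 0.253 for divergent partners and 0.134 for 929 such outer neighbours, higher in 6 of 6 contrasts (exact sign-flip p = 0.03125). The median counting error of a log2 ratio was 0.06 to 0.10 in divergent pairs over the 6 contrasts, and the SD over genes was 0.10 to 0.34.

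Divergent partners did not move together more than other close neighbours. Unpaired genes at most 1000 bp apart in other orientations had a mean correlation of 0.301, above 0.253 in divergent pairs, which were lower in 4 of 6 contrasts (exact sign-flip p = 0.3125). Partners were on the same side of the median gene in 59.2% of divergent pairs, against 64.4% of these close neighbours (lower in 5 of 6, exact p = 0.0625). Genes of these close pairs were shorter than genes of divergent pairs, with a median span of 13535 bp against 27842 bp. They were also denser, at a median of 1.24 against 0.835 RPM per kb. This comparison was not made with the density trend removed. The class of close neighbours was then split by orientation, after the data had been seen. Tail-to-tail neighbours within 1000 bp had a mean correlation of 0.429, and divergent pairs were lower in 6 of 6 contrasts (exact p = 0.03125, adjusted over the 3 measures 0.0469 and over all 18 comparisons 0.0625). With both antibodies averaged within an hour the exact p was 0.25, the smallest that 3 contrasts allow. Same-strand neighbours within 1000 bp had 0.212, and divergent pairs were higher in 3 of 6 contrasts (exact p = 0.375). Head-to-head neighbours with over 1000 and up to 10000 bp between their starts had 0.174, and divergent pairs were higher in 5 of 6 (exact p = 0.09375).

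In all 3 orientations the mean correlation was lower beyond 10000 bp than within 1000 bp. Among head-to-head genes it was 0.247 at gaps of up to 300 bp, 0.259 up to 1000 bp, 0.174 up to 10000 bp, 0.0773 up to 100000 bp and 0.0487 beyond. In the 481 and 105 divergent pairs of the first 2 bins it ranged over 0.153 to 0.345 and over 0.119 to 0.406 between contrasts, so these bins did not differ beyond their spread. Among same-strand genes the values were 0.235, 0.198, 0.201, 0.128 and 0.0569 in the same bins. Among tail-to-tail genes they were 0.368, 0.457, 0.213, 0.0876 and 0.0407.

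**Figure D2:**
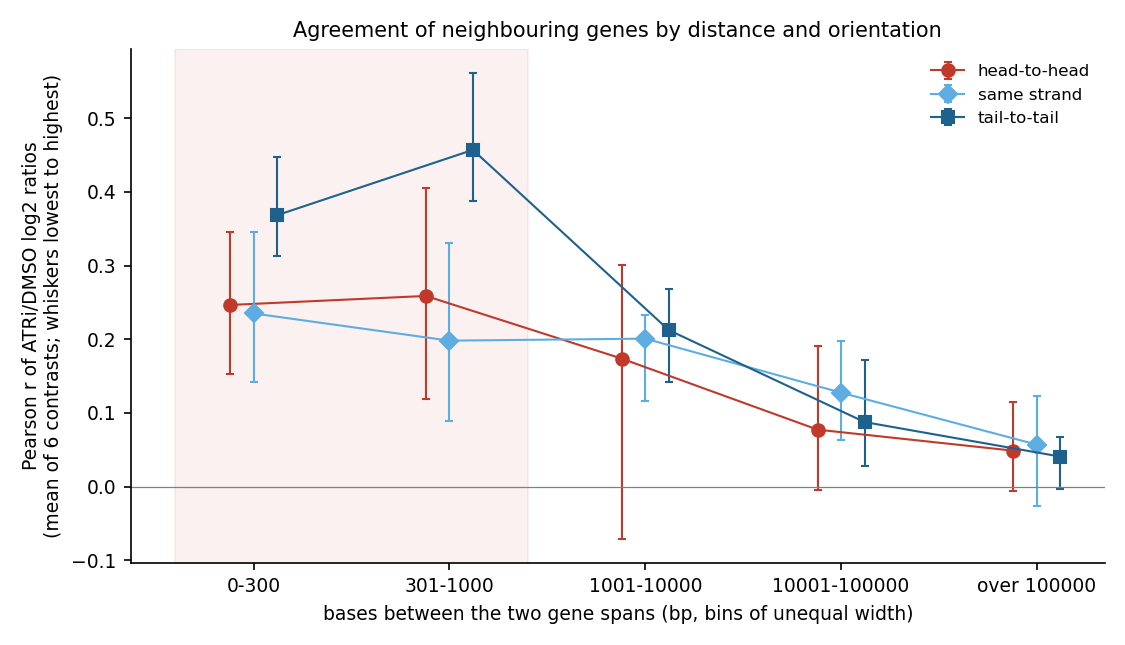
Mean Pearson correlation of the ATRi to DMSO log2 ratios of neighbouring genes over 6 contrasts, by the bases between their spans (bins of unequal width) and orientation, with whiskers from the lowest to the highest contrast. The shaded bins hold the divergent pairs and their close neighbours of other orientations, and head-to-head pairs fall to 0.0487 beyond 100000 bp.

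No single member was called under ATRi. Members had a median log2 ratio of 0.18 in total RNAPII and 0.10 in Ser2, and the medians of all genes tested were also 0.18 and 0.10. In total RNAPII limma called 0 of 1167 members (adjusted p under 0.05), where 0.0% of all 12031 genes were called. An unadjusted p under 0.05 was reached by 16 members on the higher side (1.37%; all genes 1.70%) and 0 on the lower, and edgeR and DESeq2 on the recovered reads called 0. In Ser2 limma called 0 of 1166, where the background was again 0.0%, where 260 members had an unadjusted p under 0.05 on the higher side (22.3%; all genes 21.9%) and 1 on the lower (0.0858%; 0.209%). edgeR called 0, and DESeq2 called 0 of the 76 members to which it gave an adjusted p, with none given to the other 1090. Without the 19 h libraries limma called 86 members higher in Ser2 (7.38%; all genes 7.07%), without 16 h 4 (0.343%; 0.317%) and without 22 h 0 (0.0% of all genes).

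Pairs in which both partners kept the same side of the median gene at all 3 hours were therefore listed by size, with no test. In Ser2 both partners were above at every hour in 32 pairs (5.46%; adjacent unpaired 3.28%, close unpaired 10.9%), both below in 11 (1.88%; 4.64% and 0.889%) and on opposite sides in 16 (2.73%; 4.25% and 2.00%). ODC1, the ornithine decarboxylase that starts polyamine synthesis, led the first group with its unnamed partner: Ser2 over ODC1 was 12.7, 29.2 and 17.7 RPM in ATRi at 16, 19 and 22 h, against 10.3, 23.3 and 13.3 RPM in DMSO. The ATRi library was higher at each hour, by 0.23, 0.26 and 0.23 (log2) relative to the median gene, and its partner 189 bp away had 0.06, 0.25 and 0.39. ODC1, LINC01089 and FKBP3, named next, each overlap another listed gene. Next came GGN with SPRED3, a Sprouty-related inhibitor of MAPK signalling, at means of 0.21 ± 0.10 and 0.19 ± 0.15 (SD, n = 3 hours). LINC01089 and SETD1B, a histone H3 lysine 4 methyltransferase, had means of 0.25 ± 0.29 and 0.19 ± 0.12. Below the median gene at each hour were CYP39A1, an oxysterol hydroxylase, at -0.20 ± 0.05 and SLC25A27, a mitochondrial carrier, at -0.21 ± 0.04 (SD, n = 3). DOCK4 with ZNF277 and INTS7, an Integrator subunit, with DTL, an adaptor of the CUL4 ubiquitin ligase, had means of -0.10 to -0.17. FKBP3 (0.18 ± 0.18) and FANCM, a DNA translocase of the Fanconi pathway (-0.14 ± 0.05), lay on opposite sides, as did RASAL2-AS1 (0.20 ± 0.09) and RASAL2 (-0.12 ± 0.07).

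In total RNAPII only 2 pairs were above at every hour (0.341%; adjacent unpaired 0.742%), 3 below (0.512%; 0.779%) and 7 on opposite sides (1.19%; 1.14%). COA5, a cytochrome oxidase assembly factor, and UNC50 had means of 0.14 ± 0.11 and 0.12 ± 0.07 above the median gene. LYAR and ZBTB49 had -0.19 ± 0.13 and -0.14 ± 0.04, and CINP and TECPR2 -0.17 ± 0.12 and -0.17 ± 0.17, and the last 2 genes each overlap another listed gene. MBOAT7 and TSEN34, a subunit of the tRNA splicing endonuclease, lay on opposite sides at -0.30 ± 0.21 and 0.26 ± 0.23, but at low levels: TSEN34 had 1.14, 2.08 and 1.42 RPM in ATRi, against 0.793, 2.12 and 0.479 RPM in DMSO.

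Between 22 and 16 h the members changed as all genes did. In Ser2 limma called 466 of 1166 members higher at 22 h (40.0%; background 39.0%) and 6 lower (0.515%; background 0.918%). The median log2 change was 0.21 in members and 0.21 in all genes, and the share of reads in listed genes moved with it, at 44.3% and 40.0% at 22 h (ATRi and DMSO) and 37.1% and 35.8% at 16 h. With each library centred on its median gene, 112 members were higher (9.61%; background 10.0%) and 97 lower (8.32%; background 10.2%). In total RNAPII limma called 0 members (background 0.0%), and an unadjusted p under 0.05 was reached by 2 members on the higher side (0.171%; all genes 0.598%) and 21 on the lower (1.80%; 2.35%). edgeR called 0 there, and DESeq2 1 of the 991 members to which it gave an adjusted p.

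Partner correlations over these hours were again above those of adjacent unpaired genes. For 22 h over 16 h in Ser2 they were 0.264 in ATRi and 0.386 in DMSO, against 0.160 and 0.271 in adjacent unpaired genes and 0.425 and 0.483 in close unpaired genes. In total RNAPII they were 0.275 and 0.302 in divergent pairs, against 0.118 and 0.181 in adjacent unpaired genes. Close unpaired genes had 0.402 and 0.454 there. For 16 h DMSO over 14 h divergent pairs had 0.398 in total RNAPII and 0.141 in Ser2. Adjacent unpaired genes had 0.311 and 0.0609, and close unpaired genes 0.345 and 0.358. These contrasts share libraries with those above and among themselves, and no test was made. By limma in Ser2, both partners were called higher in 118 of 585 divergent pairs (20.2%), in 16.9% of adjacent unpaired pairs and in 37.1% of close unpaired pairs. After centring, both were higher in 10 pairs (1.71%), both lower in 16 (2.74%) and 2 were opposite (0.342%), against 1.87%, 2.44% and 1.19% of adjacent unpaired pairs.

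**Figure D3:**
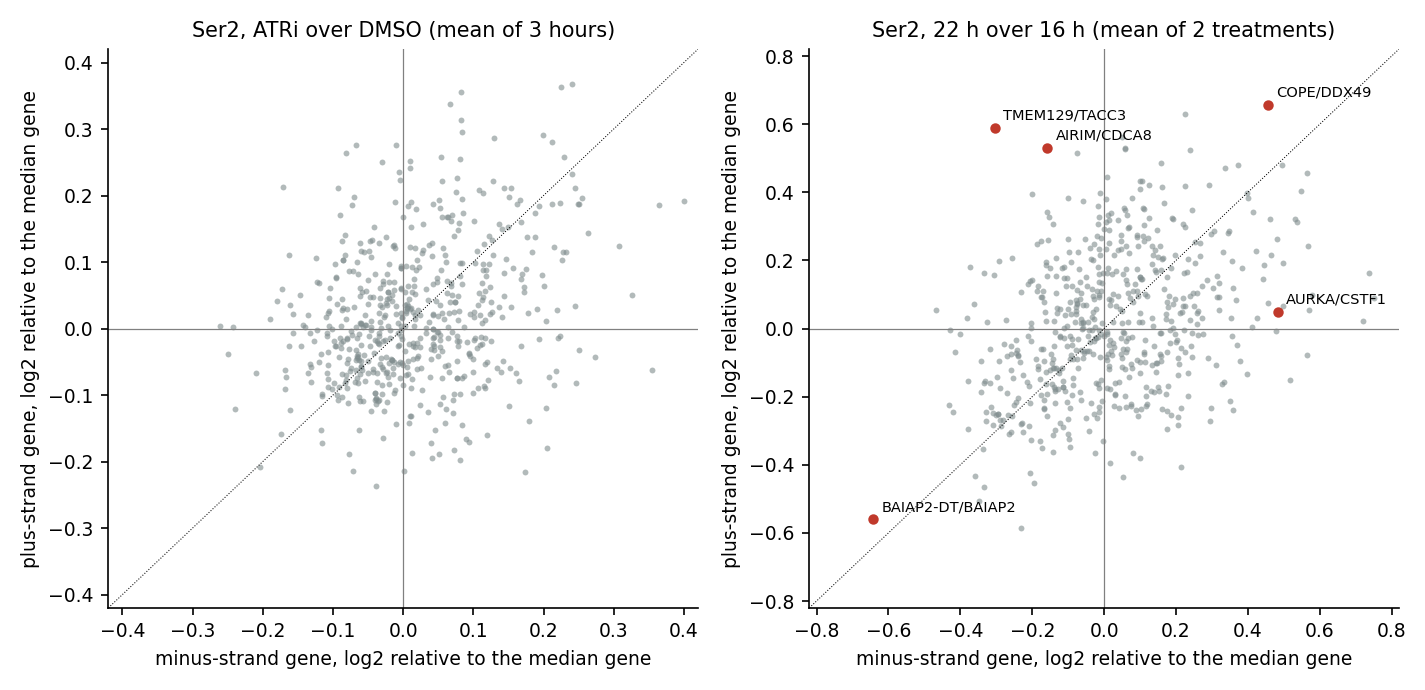
Each point is 1 of the 586 divergent pairs, with the log2 change of the minus-strand gene across and that of the plus-strand gene upward, relative to the median gene, in Ser2 for ATRi over DMSO (left) and 22 h over 16 h (right). On the right, BAIAP2-DT/BAIAP2 lies near the dotted line of equal change and COPE/DDX49 above it, at 0.46 and 0.66. TMEM129/TACC3, AIRIM/CDCA8 and AURKA/CSTF1 lie farther from the line.

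In 3 pairs both partners rose over these hours and ranked highest in Ser2 by the smaller change relative to the median gene. On that scale their genes had 0.46 (COPE) to 0.66 (DDX49). The rises in this paragraph are not relative to the median gene, which itself rose by 0.21. SLC20A1, a phosphate transporter gene, rose by 0.69 (SE 0.14, limma adjusted p = 0.00147) and its divergent transcript SLC20A1-DT by 0.70 (SE 0.13, adjusted p = 0.000762). The histone gene H2AC8 rose by 0.66 (SE 0.12, limma adjusted p = 0.000521) and its unnamed partner 282 bp away by 0.77 (SE 0.11, adjusted p = 7.07e-05), although reads of histone genes can be split between near-identical copies. COPE and DDX49 lie 277 bp apart on chromosome 19. COPE encodes a subunit of the COPI vesicle coat and DDX49 an RNA helicase. Ser2 over COPE was 23.3 RPM in ATRi and 18.3 RPM in DMSO at 22 h, against 13.3 and 12.5 RPM at 16 h. Over DDX49 it was 33.1 and 24.1 RPM at 22 h, against 16.8 and 13.9 RPM at 16 h. For both genes the 2 libraries of 22 h were above the 2 of 16 h. COPE rose by 0.66 (log2, SE 0.10, limma adjusted p = 0.000138) and DDX49 by 0.86 (SE 0.10, adjusted p = 2e-05).

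BAIAP2, which encodes a regulator of actin and membrane shape, fell with its divergent transcript BAIAP2-DT, 240 bp away on chromosome 17. Ser2 over BAIAP2 was 23.5 RPM in ATRi and 26.4 RPM in DMSO at 22 h, against 33.6 and 30.3 RPM at 16 h. Over BAIAP2-DT it was 2.07 and 2.04 RPM at 22 h, against 3.38 and 2.59 RPM at 16 h. Neither gene's hours overlapped, and BAIAP2 fell by 0.35 (SE 0.10, limma adjusted p = 0.00961) and BAIAP2-DT by 0.44 (SE 0.15, adjusted p = 0.0265). FAM227A and CBY1, an inhibitor of beta-catenin, had -0.35 and -0.51 relative to the median gene, and B4GAT1 and B4GAT1-DT -0.36 and -0.43. As for BAIAP2 and BAIAP2-DT above, the test took changes that are not relative to the median gene. These were -0.14, -0.30, -0.15 and -0.23 in the order given, and of these 4 only CBY1 passed (limma adjusted p = 0.0436).

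TK1, the thymidine kinase of the S phase salvage pathway, and AFMID, a kynurenine pathway enzyme, both lay below the median gene. Total RNAPII over TK1 was 31.6 RPM in ATRi and 16.3 RPM in DMSO at 22 h, against 41.1 and 34.4 RPM at 16 h. Over AFMID it was 11.1 and 8.62 RPM at 22 h, against 14.5 and 13.6 RPM at 16 h. Both genes were lower in both libraries of 22 h, by means of -0.66 for TK1 and -0.45 for AFMID relative to the median gene. Neither passed the test, at limma adjusted p = 1.00 for each.

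Members from a list of mitotic genes all passed the test as higher at 22 h than at 16 h in Ser2, and 5 of their 10 partners did. The list held 61 genes, of which 10 were members of divergent pairs, each with a partner from outside the list. All 10 were called higher at 22 h by limma, against 39.0% of all genes, and 7 of 10 after centring, against 10.0%. Of their 10 partners, 5 were called higher, and 1 after centring. Relative to the median gene the 10 members had a median change of 0.43 (0.20 to 0.57) and the partners 0.05 (-0.16 to 0.54). In total RNAPII all 10 members were above the median gene, with a median of 0.26, and 6 of the 10 partners, with a median of 0.03. The lists were chosen with earlier results of these samples known, so their direction is not independent evidence.

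AURKA, the kinase of centrosome maturation and spindle assembly (hg38 chromosome 20, 56369389 to 56392337, minus strand), starts 33 bp from CSTF1, a subunit of the cleavage stimulation factor that processes mRNA ends. Ser2 over AURKA was 19.5 RPM in ATRi and 16.6 RPM in DMSO at 22 h, against 12.4 and 9.75 RPM at 16 h. Over CSTF1 it was 11.3 and 9.96 RPM at 22 h, against 9.06 and 8.54 RPM at 16 h. The hours did not overlap for either gene, but the step was larger for AURKA. AURKA rose by 0.69 (SE 0.10, limma adjusted p = 9.87e-05), while CSTF1 had 0.26 (SE 0.11, adjusted p = 0.0609), close to the median gene. The ratio of AURKA to CSTF1 was 0.43 higher at 22 h (log2, SE 0.12, limma adjusted p = 0.0534) and did not pass.

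CDCA8, the borealin subunit of the chromosomal passenger complex (chromosome 1, 37692418 to 37709719, plus strand), had the largest change of the ratio among the 10 pairs. Ser2 over CDCA8 was 20.6 RPM in ATRi and 16.7 RPM in DMSO at 22 h, against 12.1 and 9.93 RPM at 16 h. Over its partner AIRIM it was 7.57 and 6.32 RPM at 22 h, against 7.57 and 5.88 RPM at 16 h. CDCA8 was separated by hour while AIRIM overlapped, and their ratio rose by 0.69 (SE 0.12, limma adjusted p = 0.0165). PTTG1, securin, had 11.1 RPM in ATRi and 7.59 RPM in DMSO at 22 h, against 5.48 and 5.25 RPM at 16 h. Its partner SLU7, a splicing factor, had 13.4 and 10.2 RPM at 22 h, against 9.93 and 11.5 RPM at 16 h. The ratio of PTTG1 to SLU7 rose by 0.59 (SE 0.12, limma adjusted p = 0.0244). FOXM1, the transcription factor of G2 and M phase genes, had 24.1 RPM in ATRi and 21.9 RPM in DMSO at 22 h, against 13.7 and 12.8 RPM at 16 h. Its partner TULP3, an adaptor of ciliary trafficking, had 57.5 and 49.3 RPM at 22 h, against 47.6 and 41.3 RPM at 16 h. The ratio of FOXM1 to TULP3 rose by 0.51 (SE 0.12, limma adjusted p = 0.0364), and with the density trend removed only the CDCA8 ratio of these 3 passed.

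Not all mitotic members parted from their partners. The rises given next are not relative to the median gene, which itself rose by 0.21 in Ser2. HMMR, a hyaluronan-mediated motility receptor that acts at the spindle, rose by 0.41 in Ser2 (SE 0.09, limma adjusted p = 0.00275) and NUDCD2 by 0.44 (SE 0.10, adjusted p = 0.00341). CENPK, a kinetochore protein, rose by 0.40 (SE 0.11, limma adjusted p = 0.00684) and PPWD1 by 0.42 (SE 0.11, adjusted p = 0.00681). CKS1B, a CDK-binding protein, rose by 0.52 (SE 0.11, limma adjusted p = 0.00172) and SHC1, an adaptor of growth factor receptors, by 0.74 (SE 0.12, adjusted p = 0.000161). Over all 10 pairs, the member's change exceeded that of its partner in 7 in Ser2 (median difference 0.38) and in 9 in total RNAPII (0.32), where the median absolute difference over all divergent pairs was 0.16 and 0.13. The ratio test called 3 of the 10 pairs, all in Ser2: CDCA8, PTTG1 and FOXM1. In Ser2 it called 4.61% of divergent pairs and 7.74% of all neighbouring pairs.

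**Figure D4:**
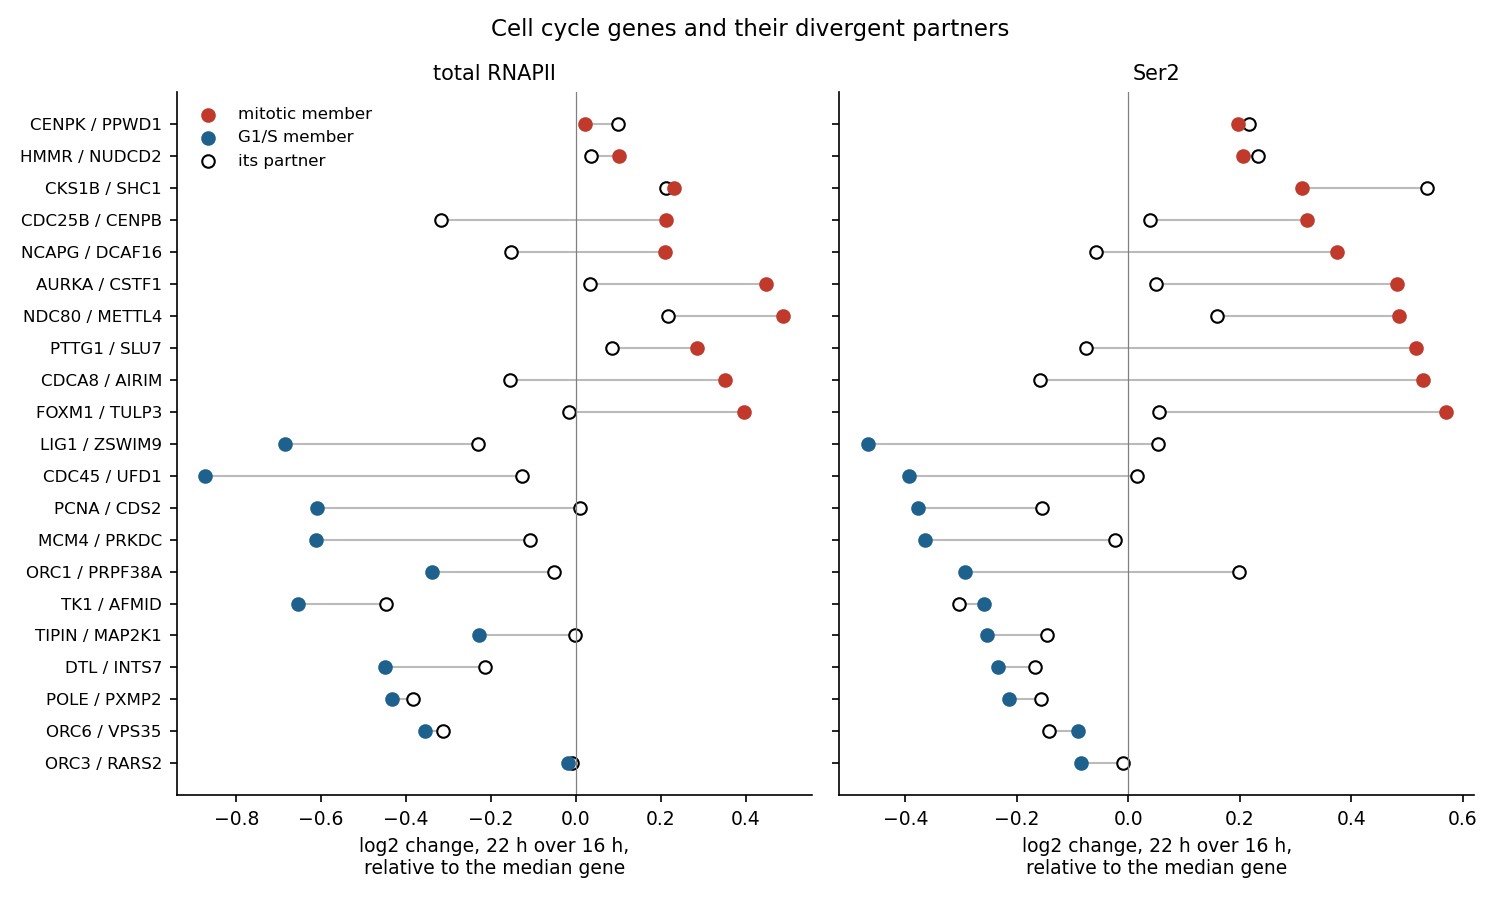
Log2 change of 22 h over 16 h relative to the median gene, mean of the ATRi and DMSO differences, for 10 mitotic (red) and 11 G1/S (blue) members and their divergent partners (open circles), in total RNAPII (left) and Ser2 (right). Filled points lie right of 0 for mitotic and left of 0 for G1/S members in both panels, and most open circles lie nearer 0.

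G1/S and DNA replication genes lay on the other side of the median gene. Of 59 genes on the list, 11 were members, and all 11 lay below the median gene at 22 h relative to 16 h in total RNAPII (median -0.45, -0.87 to -0.02) and in Ser2 (median -0.26, -0.47 to -0.08). Their partners had medians of -0.13 in total RNAPII and -0.14 in Ser2, with 1 and 3 of 11 above the median gene. In Ser2 limma called 1 of the 11 members lower, LIG1, against 0.918% of all genes, and 8 of 11 after centring, against 10.2%. Of the 11 partners 2 were called higher, against 39.0% of all genes, and 1 lower after centring, against 10.2%. PCNA, the sliding clamp of the replication fork (chromosome 20, 5114953 to 5126626, minus strand), had 26.7 RPM of total RNAPII in ATRi and 13.2 RPM in DMSO at 22 h, against 30.2 and 30.0 RPM at 16 h. Its partner CDS2, an enzyme of phosphatidylinositol synthesis, had 34.3 and 29.3 RPM at 22 h, against 33.6 and 32.0 RPM at 16 h. PCNA was lower in both libraries of 22 h while the hours overlapped for CDS2, with means of -0.61 and 0.01 relative to the median gene. The 22 h libraries also differed in the share of reads in genes, 57.4% in ATRi and 42.8% in DMSO, whose part in this was not tested. The ratio of PCNA to CDS2 was -0.62 in total RNAPII (SE 0.23, limma adjusted p = 0.542) and did not pass.

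CDC45, a subunit of the replicative helicase, had 34.4 RPM of total RNAPII in ATRi and 22.7 RPM in DMSO at 22 h, against 52.4 and 55.1 RPM at 16 h. UFD1, a cofactor of the p97 segregase that starts 243 bp away, had 29.6 and 20.1 RPM at 22 h, against 28.7 and 27.0 RPM at 16 h. The hours were separated for CDC45 and overlapped for UFD1, and their ratio was -0.74 (SE 0.16, limma adjusted p = 0.347). MCM4, of the MCM helicase, starts 1 bp from PRKDC, the catalytic subunit of DNA-PK, on chromosome 8. Total RNAPII over MCM4 was 41.9 RPM in ATRi and 21.0 RPM in DMSO at 22 h, against 46.7 and 48.3 RPM at 16 h. Over PRKDC it was 169 and 117 RPM at 22 h, against 144 and 174 RPM at 16 h. Relative to the median gene MCM4 had -0.61 and PRKDC -0.11, and their ratio did not pass (limma adjusted p = 0.548). In Ser2 the ratio test called 2 of the 11 pairs, against 4.61% of divergent pairs and 7.74% of all neighbouring pairs. LIG1, the ligase of lagging strand synthesis, parted from ZSWIM9 by -0.52 (SE 0.12, limma adjusted p = 0.0344), and ORC1, of the origin recognition complex, from PRPF38A, a spliceosome protein, by -0.49 (SE 0.13, adjusted p = 0.0422).

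**Figure D5:**
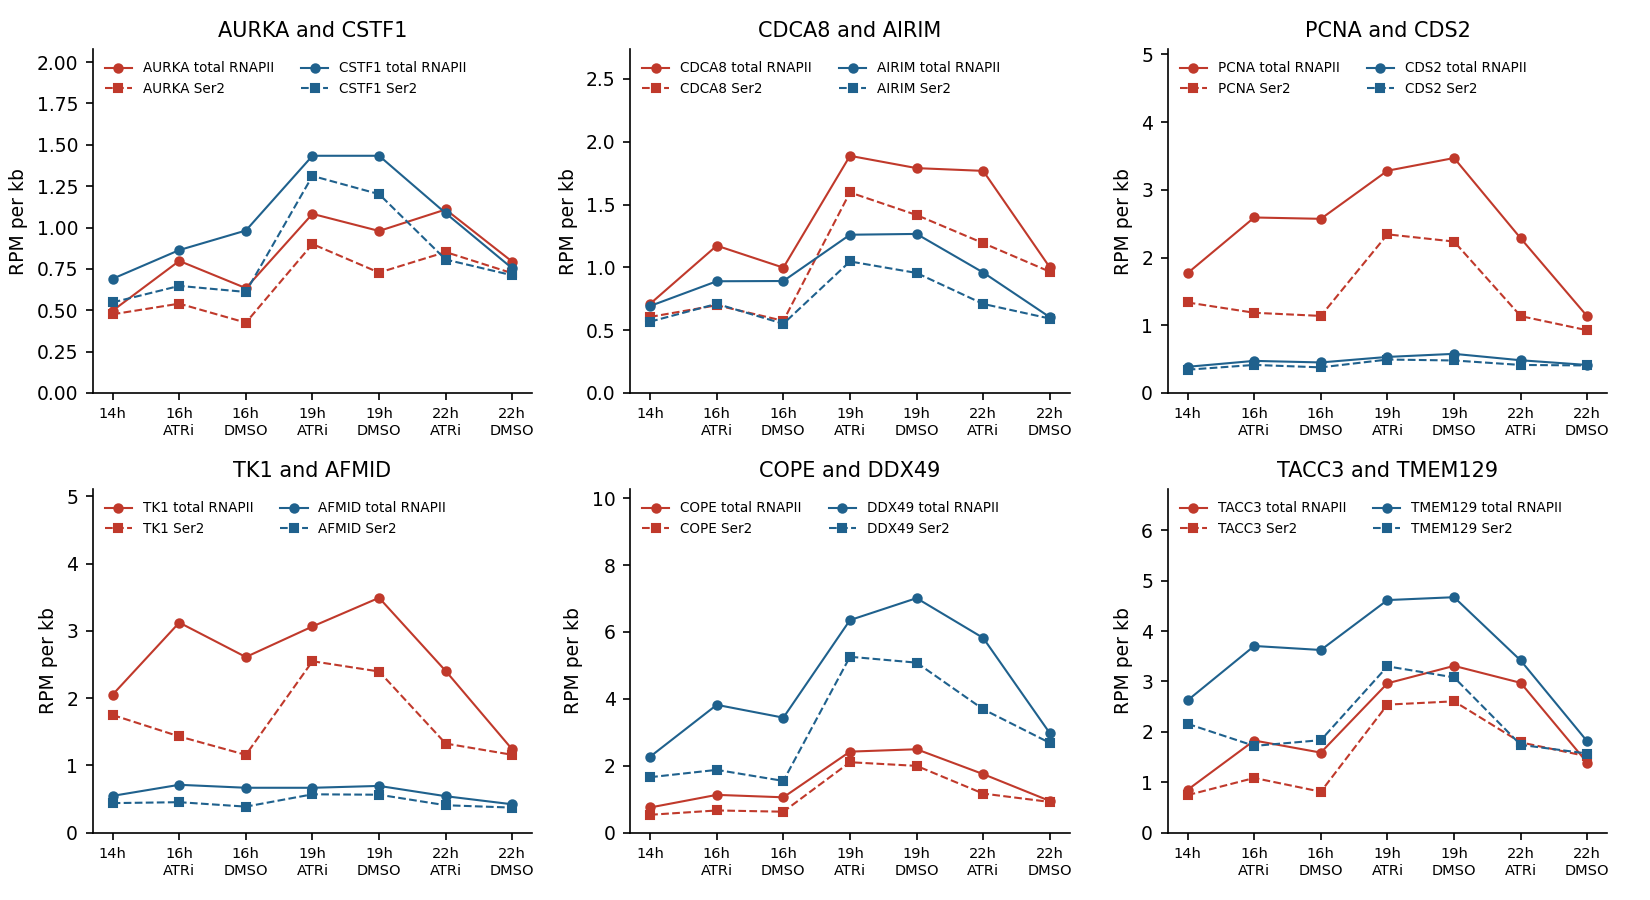
RPM per kb of both genes of 6 divergent pairs in the 14 libraries, total RNAPII as circles with solid lines and Ser2 as squares with dashed lines, with ATRi left of DMSO at each hour (lines only guide the eye). At 22 h CDCA8, AURKA and TACC3 (red) lie above their 16 h values in Ser2, and PCNA and TK1 (red) lie below theirs in total RNAPII.

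Over all divergent pairs, the ratio between partners changed between 22 and 16 h in 27 of 586 in Ser2 (4.61%; background over all neighbouring pairs 7.74%). The share was 7.96% in adjacent unpaired pairs, 4.22% in close unpaired pairs and 1.61% in tail-to-tail pairs within 1000 bp. This ratio was added after the data were seen, and a scaling of the library cancels in it. TACC3, a spindle protein, and TMEM129, a ubiquitin ligase of the endoplasmic reticulum, led with the largest difference. Ser2 over TACC3 was 42.5 RPM in ATRi and 35.9 RPM in DMSO at 22 h, against 25.7 and 19.3 RPM at 16 h, and over TMEM129 9.43 and 8.50 RPM, against 9.31 and 9.93 RPM. TMEM129 relative to TACC3 was -0.89 (SE 0.15, limma adjusted p = 0.0165). GAS6, a ligand of TAM receptor kinases, parted from its divergent transcript GAS6-DT by 0.57 (SE 0.13, limma adjusted p = 0.0344), and WAPL, the cohesin release factor, from WAPL-DT by 0.62 (SE 0.12, adjusted p = 0.0189). CDCA3, which is needed for entry into mitosis, parted from USP5, a deubiquitinase, by 0.57 (SE 0.12, limma adjusted p = 0.0266), and EME1, a subunit of the MUS81 nuclease, from MRPL27, of the mitochondrial ribosome, by 0.51 (SE 0.13, adjusted p = 0.0410). With the density trend removed limma called 9 divergent pairs (1.54%; all neighbouring pairs 2.29%), 5 of them among the 27. Among these 5 were CDCA8 with AIRIM and TACC3 with TMEM129 (adjusted p = 0.0319 each), while PTTG1 with SLU7 (0.0582), FOXM1 with TULP3 (0.0686), LIG1 with ZSWIM9 (0.0846) and ORC1 with PRPF38A (0.0756) no longer passed. Nor did GAS6 with GAS6-DT (0.0611), CDCA3 with USP5 (0.0757) and EME1 with MRPL27 (0.0707). In the other 3 comparisons limma called 0 of 586 pairs (background 0.0%), with 2 (ATRi, total RNAPII), 29 (ATRi, Ser2) and 30 (22 h, total RNAPII) at an unadjusted p under 0.05. These are 0.341%, 4.95% and 5.12% of divergent pairs, against 0.841%, 8.43% and 8.79% of adjacent unpaired pairs. No count model was run on the ratio.

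DNA repair genes among the members lay on both sides of the median gene. Of 81 on the list 17 were members, with medians of -0.08 in total RNAPII and -0.02 in Ser2 relative to the median gene, and their 17 partners had -0.03 and 0.03. In Ser2 limma called 5 of the 17 higher at 22 h and 6 of the partners, against 39.0% of all genes. After centring it called 3 members higher and 0 lower. Of the partners it then called 0 higher and 3 lower, where 10.0% and 10.2% of all genes were called. EME1 rose by 0.77 (SE 0.10, limma adjusted p = 2.81e-05), APEX1, the abasic site endonuclease, by 0.51 (SE 0.11, adjusted p = 0.00221), and XRCC6, the Ku70 subunit, by 0.46 (SE 0.09, adjusted p = 0.0012). These rises are not relative to the median gene, which itself rose by 0.21. None of these 3 had a partner that passed by limma. The ratio to the partner passed for EME1 (limma adjusted p = 0.0410). It did not pass for APEX1 with OSGEP (0.45, SE 0.12, limma adjusted p = 0.0523) or XRCC6 with DESI1 (0.24, SE 0.12, adjusted p = 0.218). PPAT and PAICS encode enzymes of the same pathway, purine synthesis. In Ser2 PPAT had 17.1 RPM in ATRi and 14.2 RPM in DMSO at 22 h, against 16.4 and 17.5 RPM at 16 h, and PAICS 28.0 and 20.5 RPM, against 19.4 and 21.5 RPM. The hours overlapped for both, and without centring neither passed (limma adjusted p = 0.379 for PPAT and 0.124 for PAICS). Relative to the median gene PPAT had -0.33 and PAICS 0.02. After centring limma called 1 of the 2 genes lower, against 10.2% of all genes. COL4A5 and COL4A6, paired basement membrane collagen chains 346 bp apart, had -0.29 and -0.38 in Ser2 relative to the median gene. Without centring neither passed (limma adjusted p = 0.467 and 0.136). After centring limma called both lower, against 10.2% of all genes.

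Pairs near the limit of 1000 bp are given as values with no test. Just inside, HSPBAP1 and SLC49A4 (970 bp) had Ser2 changes of -0.31 and -0.28 over 22 against 16 h, and ADM, adrenomedullin, and its unnamed partner (975 bp) had -0.08 and 0.16. Just outside, MKKS and SLX4IP (1080 bp) had -0.23 and -0.26, and H3C7 and its unnamed histone neighbour (1045 bp) 0.52 and 0.60.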

How the data were processed

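ChIP-seq for total RNAPII and Ser2 was analysed in 14 libraries, 1 per group. The deposited table holds RPM per gene span, computed by the authors; its headers do not name the unit, which was read from the values. The submitters' processing notes name Bowtie2 2.3.3.1, SAMtools 1.4 and the build hg38. The counting tool, the annotation and any use of the input chromatin are not given in the sources used here. The protocol text in the labels names only histone antibodies, so antibody identity rests on the sample characteristics. All values were whole multiples of 1 read (100% of values, tolerance 0.01 reads), which gave the library totals. The floor of 3 reads lies between 0.0481 and 0.175 RPM and covers counting error alone.

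From these values, gene symbols were assigned by position against RefSeq GRCh38 (10727 of 12411 nuclear genes, 86.4%; spans sharing a Jaccard overlap of 0.8, or of 0.5 where 1 end differed by at most 100 bp), and 14 mitochondrial genes were left out. limma 3.58.1 (R 4.3.3, eBayes with trend, two-sided) was fitted over all genes averaging 1 RPM or more, on log2(RPM + 0.5), with hour as block for ATRi and treatment as a term for 22 h against 16 h, and Benjamini-Hochberg adjustment at 0.05. This scale understates the change of low genes. In the hour test the DMSO and ATRi libraries stand in for replicates and the 19 h libraries enter the error, so p-values reflect no spread other than that among the libraries at hand. The ratio between partners was fitted by limma with the same terms over 8672 neighbouring pairs, but by eBayes without trend. For the ratio, both genes had to average 1 RPM or more over the 12 treated libraries of both antibodies. Alternatives on the recovered reads used edgeR 4.0.16 and DESeq2 1.42.0. The fits were tested on simulated data. Adjacent unpaired genes are neighbours with non-overlapping spans, neither of which belongs to any divergent pair. Members, lists and alternatives were chosen with earlier results of these data known. Pairs were named by rule: textbook pairs, pairs that kept a side of the median gene in every contrast ranked by the smaller change, opposite pairs ranked likewise, and pairs at the gap limits. List members, pairs with a changed ratio and pairs whose promoters are shown were named after their values were seen. Positional names can fail where genes share a span. Some results for list members are not reported here.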

Additional observations from a re-analysis of the deposited data

Results flagged for a closer look

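The mean ATRi effect of 3 named members had opposite signs in Ser2 and in total RNAPII at all 3 hours, relative to the median gene. CINP was at 0.14 in Ser2 and -0.17 in total RNAPII, a difference of 0.31. TECPR1 was at 0.15 in Ser2 and -0.16 in total RNAPII, a difference of 0.31. PXMP2, the partner of the polymerase gene POLE, was at 0.10 in Ser2 and -0.07 in total RNAPII, a difference of 0.16. These differences were not tested.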

How the results depend on the processing

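The excess of divergent over adjacent unpaired pairs under ATRi was 0.114 in correlation, 3.72 percentage points in same-side pairs and -0.02 in median absolute difference. With the density trend removed these were 0.0666, 1.68 and -0.0081 (exact adjusted p = 0.0625 each). Against unpaired genes within 1000 bp they turned to -0.0483, -5.22 and 0.0023. Against head-to-head neighbours over 1000 and up to 10000 bp apart they were 0.0792, 3.03 and -0.0192. With gaps over 300 bp only they were 0.12, 3.74 and -0.0109. In both settings none passed, at an exact adjusted p of 0.0938 to 0.188 and of 0.0938 to 0.281. With total RNAPII only they were 0.146, 5.01 and -0.0281 and with Ser2 only 0.0817, 2.43 and -0.0158, where 3 contrasts cannot give an exact p below 0.25. Leaving out an hour gave 0.104 to 0.125, 3.26 to 4.59 and -0.0292 to -0.0118, where the exact test cannot go below 0.125. Other pseudocounts, other filters, outer neighbours, pairs free of overlap, pairs without histone genes and Spearman correlation kept the direction and the call.

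Members called higher in Ser2 under ATRi numbered 0 to 86 with an hour left out (0.0% to 7.38%; all genes 0.0% to 7.07%). For 22 h against 16 h in Ser2, the 466 higher and 6 lower members became 48 and 36 with the trend removed (4.12% and 3.09%; all genes 5.07% and 3.62%) and 112 and 97 after centring (9.61% and 8.32%; all genes 10.0% and 10.2%). They were 104 and 64 by edgeR (8.92% and 5.49%; all genes 9.68% and 7.60%) and 56 and 42 by DESeq2 (4.80% and 3.60%; all genes 5.20% and 4.98%), which gave 214 members no adjusted p. In total RNAPII the trend removed gave 31 higher and 34 lower (2.66% and 2.91%; all genes 3.66% and 4.10%). DESeq2 gave 1 lower (0.0857%; all genes 0.208%), with no adjusted p for 176 members. Pairs with a changed ratio in Ser2 numbered 16 and 41 at pseudocounts of 0.1 and 1 (2.73% and 7.0%; all neighbouring pairs 5.29% and 9.96%), 41 at a filter of 5 RPM (7.56%; 11.6%) and 9 with the trend removed (1.54%; 2.29%). In total RNAPII there were 21 with the trend removed (3.58%; 5.81%). Of 918 alternative values of named members 833 stayed within their spread, 82 moved and 3 were counted as turned. Those 3 had the trend removed in Ser2 between 22 and 16 h: NBR1 to -0.0595, TULP3 to -0.0611 and ZSWIM9 to -0.0851. A turn was counted only for genes that limma had called in that comparison. Changes of sign in other genes, and so all those under ATRi and in total RNAPII, count as within the spread or as moved. The cause of these changes was not tested. The ATRi tests are paired by hour. No paired analysis by replicate number was possible because each group holds 1 library and the labels carry no such numbers.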
